A study of Mus musculus and Rattus norvegicus with 24 samples.

Results

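Splicing factors were taken as the listed genes whose symbols begin with Srsf, Hnrnp, Sf3a, Sf3b, Snrp or Prpf, or with Rbm followed by a digit. These name patterns matched 89 of the 9595 listed genes. The match used names alone, but the patterns were chosen with earlier results of these data known. The 89 comprised 10 SR proteins, 20 hnRNPs, 8 subunits of SF3a and SF3b, 11 snRNP proteins, 12 pre-mRNA processing factors and 28 RNA binding motif proteins. By annotation 88 were protein-coding and 1, Rbm3os, was an antisense RNA. Expression was measured by RNA sequencing of 24 single cells labelled as cardiomyocytes, 8 in each of 3 groups. Transplanted cells were mouse embryonic stem cell-derived cardiomyocytes recovered after 30 days in the heart of a neonatal rat. Cultured cells were also derived from mouse embryonic stem cells and spent their 30 days in vitro. The stem cells of both groups carried Isl1-Cre, Rosa-RFP and aMHC-GFP, a recombinase and reporter set that labels cells of an Isl1 history and cells active at the alpha myosin heavy chain promoter. Adult cells were ventricular cardiomyocytes of wild-type adult rats, so the adult group differs from the others in species as well as in age and origin, and its rat reads were counted on the mouse build. Cells were flow sorted or picked by hand, and which cell was taken which way is not stated.

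Introns are removed from pre-mRNA by the spliceosome, which is built from small nuclear ribonucleoproteins (snRNPs). Each of the main snRNPs is a small RNA held in a ring of Sm proteins, and the SF3a and SF3b subunits of the U2 snRNP clamp the branch site. Prpf proteins join the later tri-snRNP and activated complexes. SR proteins, mostly bound to exonic enhancers, and hnRNPs, often bound to silencers, shift which exons are joined. In heart muscle, Rbm20 and Rbm24 are RNA-binding regulators of sarcomere transcripts, and mutation of RBM20 is a known cause of dilated cardiomyopathy with altered titin splicing. The counts are per gene, so they give levels of the factors and say nothing of isoforms or of splicing itself.

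The labels name no animal or culture. Each group was therefore 1 sample, no test between groups was made, and the 8 cells of a group describe spread but are not replicates. Group totals were 1302871 counts in transplanted, 206178 in cultured and 1271528 in adult cells. Per cell the totals ran from 88796 to 344224, from 16099 to 60789 and from 108546 to 223744 in that order, so the cultured cells were the shallowest. A list of 12 cardiomyocyte markers held 12.7% to 21.3% of counts in transplanted cells and 14.0% to 18.04% in adult cells, with Myl7 at 0 in both. In cultured cells it held 0.00837% to 17.5%, and cells F, G and H were at 0.428%, 0.0883% and 0.00837%, so the label of these 3 cells is not borne out by the defining markers. Cultured cells B to E also stood apart by Rpph1, the RNA subunit of ribonuclease P, which took 2.51% to 5.48% of their counts, against 0.0202% to 0.0574% in the other cultured cells and 0 in transplanted cells. Fibroblast markers (8 of 11 listed) reached 0.209% of counts in cultured H and 0.189% in F, above their cardiomyocyte markers in H alone, and were at 0 in D, E and G. Col1a2, Pdgfra, Fn1 and Vim had counts in cultured cells, and Col3a1, Dcn, Lum and Postn had none. Pluripotent markers (5 of 10 listed) reached 0.135% in cultured F and 0.0963% in H, and 0.762% in adult A. In adult cells only Sox2 and Esrrb of this list had counts, and Nanog, Klf4 and Tdgf1 were at 0. In transplanted cells Sox2 alone had counts, and in cultured cells all but Esrrb. The ribosomal precursor Rn45s took 1.29% to 13.2% of counts in cultured cells, 0.547% to 1.78% in transplanted and 0.748% to 1.95% in adult cells. The part of these features in the results was not tested. The summed share is given with and without the doubted cultured cells, as are the named members whose direction turned without them.

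Splicing factors took 1.34% of all counts in cultured cells (exact 95% interval 1.295 to 1.395), 0.162% in transplanted cells (0.156 to 0.169) and 0.311% in adult cells (0.301 to 0.321). These intervals, and those below, cover counting error only, since the reads carry no molecular identifiers. By cell, the share had a lowest, median and highest value of 0.676%, 1.22% and 3.04% in cultured cells, 0.0239%, 0.145% and 0.356% in transplanted cells and 0.0586%, 0.251% and 0.869% in adult cells. All 8 cultured cells were above all 8 transplanted cells, whereas adult F, at 0.869%, was above cultured C, at 0.676%. The summed share was 8.28-fold lower in transplanted than in cultured cells (7.82 to 8.76), 4.32-fold lower in adult than in cultured cells (4.12 to 4.54) and 1.91-fold higher in adult than in transplanted cells (1.82 to 2.02). Without cultured cells B to E the cultured share was 1.77%, and without F to H it was 1.16%. Without adult F and H, the adult cells with the highest shares, the adult share was 0.217%.

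By median, the number of members seen per cell was also highest in cultured and lowest in transplanted cells, and the adult range overlapped both. At least 1 count was found for 78 of the 89 members in the cultured group, 49 in the adult group and 32 in the transplanted group. Over all 9595 genes the same shares were 76.2%, 38.1% and 32.6%, against 87.6%, 55.1% and 35.96% of the members. With every cell thinned to 16099 counts, the total of the shallowest cell, a cultured cell was expected to show 10.6 to 42.2 members (median 28.1), an adult cell 2.94 to 13.7 (median 7.05) and a transplanted cell 1.74 to 5.91 (median 4.41). As deposited the numbers were 11 to 44, 6 to 20 and 4 to 10. At the thinned depth adult C and F, at 13.7 and 11.7 members, were above cultured H, at 10.6, and adult C was also above cultured D, at 13.5. Members made up 1.31% to 2.15% of the genes expected at this depth in a cultured cell, 0.584% to 2.01% in an adult cell and 0.237% to 1.13% in a transplanted cell, so the transplanted and cultured ranges did not overlap on this measure either.

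**Figure D1:**
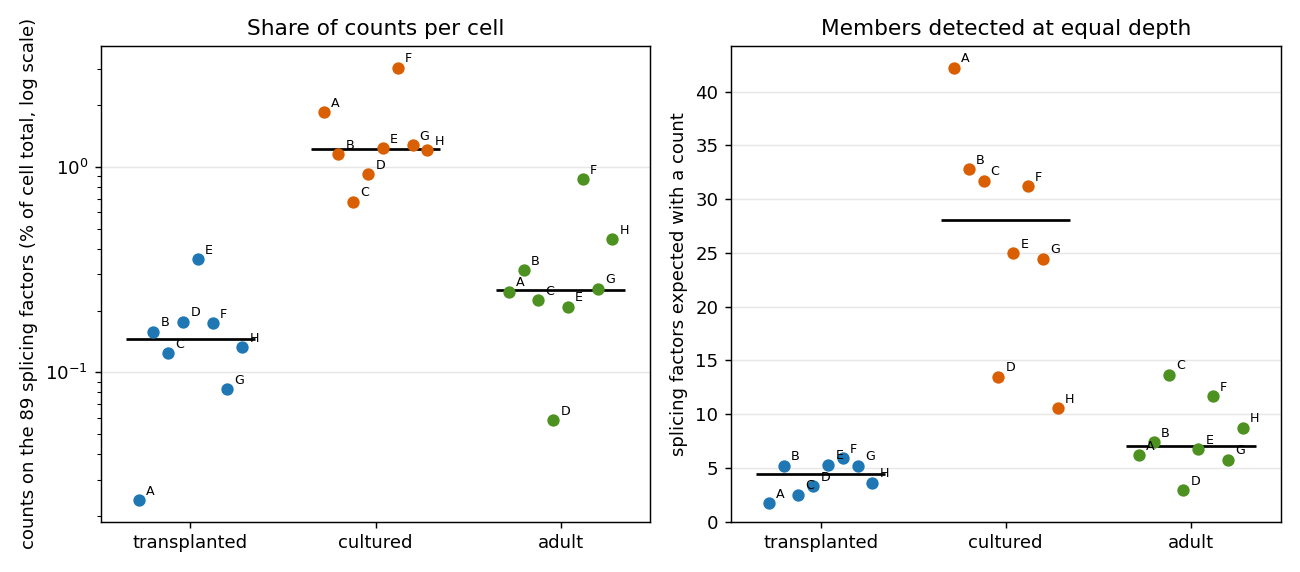
Share of each cell's counts on the 89 splicing factors (left, percent on a log axis) and number of them expected with at least 1 count after thinning to 16099 counts (right), by group. Each point is a cell with its letter and each bar the median of 8 cells. The 8 cultured cells lie above the 8 transplanted cells in both panels, and adult F overlaps the cultured range at left.

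The counts of a member were uneven from cell to cell. Counts in at least 4 of 8 cells were found for 20 members in cultured, 5 in adult and 3 in transplanted cells, and counts in exactly 1 cell for 19, 27 and 19. The leading member of a transplanted cell held 30.2% to 76.5% of that cell's splicing factor counts, against 7.92% to 37.3% in a cultured cell. Rbm22 and Rbm42 had no count in any cell. Of the rest, 30 had counts in cultured cells alone and 21 in all 3 groups. Adult cells alone had counts of 5 (Hnrnpa3, Snrpc, Snrpn, Prpf38a and Rbm45), and transplanted cells alone of 1 (Prpf19, 1 count). These numbers of members by cell and group were not taken over all genes, so they are not read as a trait of the members. Of all 9595 genes, 7310 had counts in the cultured group, 3651 in the adult group and 3129 in the transplanted group. Levels are given in CPM, counts scaled to a total of 1000000. By counting error alone, a member with 0 counts may still lie at the level of 3 counts over the group. This floor was 2.30 CPM in the transplanted, 14.6 CPM in the cultured and 2.36 CPM in the adult group. Ratios given below as at least a fold rest on this floor. They do not cover the uneven spread of counts between cells, so they are not bounds on what other cells would show.

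For the comparisons, a member with at least 10 counts over both groups was taken as measured, and as higher or lower when the ratio of summed CPM was at least 2-fold. In transplanted against cultured cells, 60 members were measured, of which 49 were lower, 3 higher and 8 within 2-fold. Of all 4958 genes measured in this comparison, 64% were lower and 22.5% higher. In adult against cultured cells, 66 were measured, of which 48 were lower and 8 higher, beside 62.1% lower and 23% higher among all 5132 measured genes. In adult against transplanted cells, 39 were measured, of which 24 were higher and 8 lower, beside 44.3% higher and 34.8% lower among all 3501 measured genes. The median log2 ratio of measured members, with a pseudocount of 1 CPM, was -6.16 in the first comparison (all genes -5.63), -4.27 in the second (-3.85) and 3.02 in the third (0.37). With zeros set at the floor of 3 counts these medians were -5.28 (all genes -4.53), -4.23 (-4.04) and 2.70 (0.37). These counts cannot be read as covering all members, because 29, 23 and 50 were not measured. A member counted through cultured cells alone had to come out as lower. This held for 32 of the 49 and 21 of the 48, with 0 counts in the other group. Other calls with 0 counts in 1 group likewise had their direction set. In adult against transplanted cells these were 15 of the 24 higher and 4 of the 8 lower. Against cultured cells they were 2 of the 3 higher in transplanted and 5 of the 8 higher in adult cells. Also, 10 counts weigh more CPM in the shallow cultured group than in the others.

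**Figure D2:**
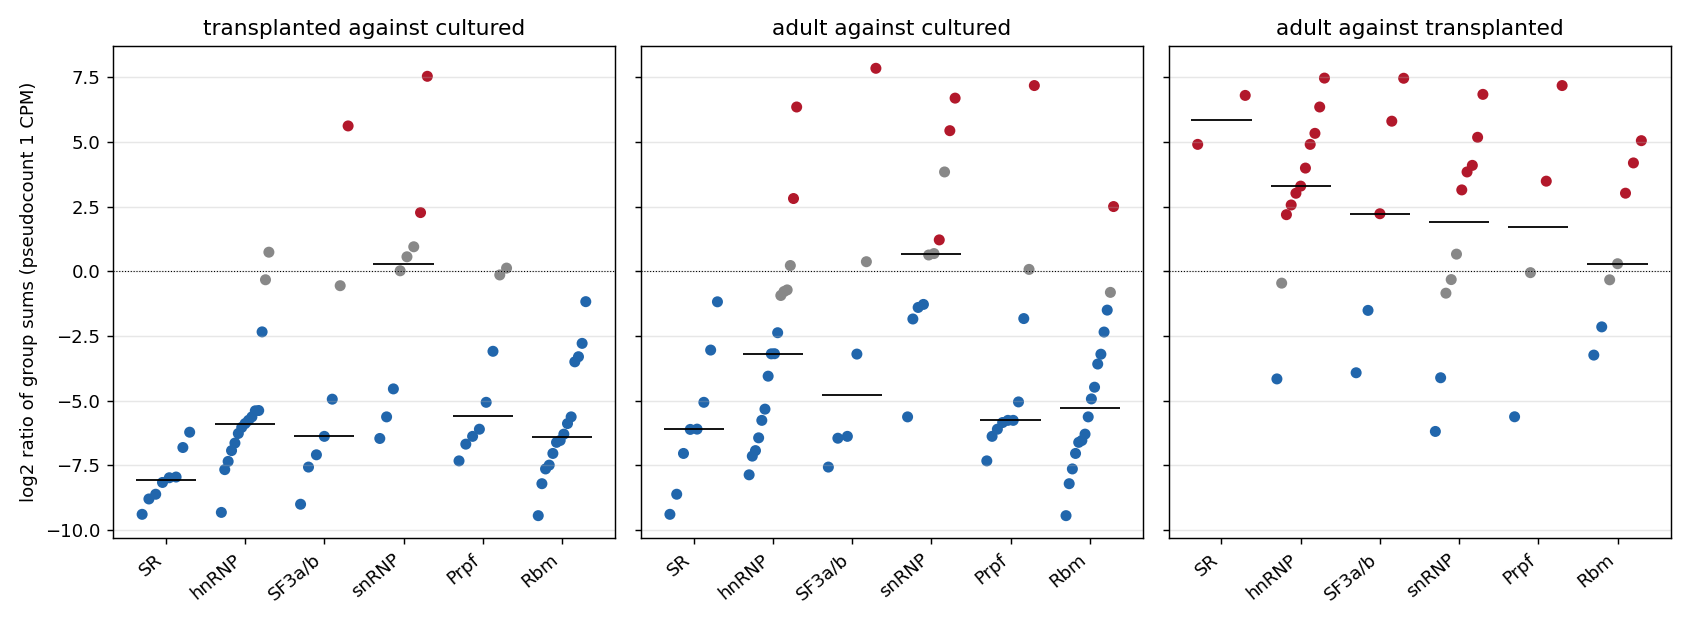
Log2 ratio of summed CPM (pseudocount 1 CPM) of every measured member by family, in the 3 comparisons. Points are genes, red at least 2-fold higher, blue at least 2-fold lower and grey neither, or with no usable bound against 0 counts, and bars are family medians. In the left and middle panels the snRNP bar is near 0 and the other family bars are well below it.

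The snRNP proteins, which include the Sm ring, held like shares of the summed counts in the 3 groups, but not of each cell. They took 0.0712% of counts in transplanted, 0.0597% in cultured and 0.0606% in adult cells. The transplanted sum was 1.19-fold the cultured sum (0.988 to 1.45), and 1.88-fold lower without transplanted E. The adult sum was 1.02-fold the cultured one (0.839 to 1.24) and turned to 1.02-fold to 1.20-fold lower without any 1 of adult A, E and H and cultured B to F. Of 8 measured in transplanted against cultured cells, 2 were higher, 3 lower and 3 within 2-fold. Of all measured genes 22.5% were higher and 64% lower, so the share higher (25%) was near that of all genes. The remaining 78 members together were 14.1-fold lower in transplanted than in cultured cells (13.2 to 15.1) and 5.13-fold lower in adult than in cultured cells (4.87 to 5.41).

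**Figure D3:**
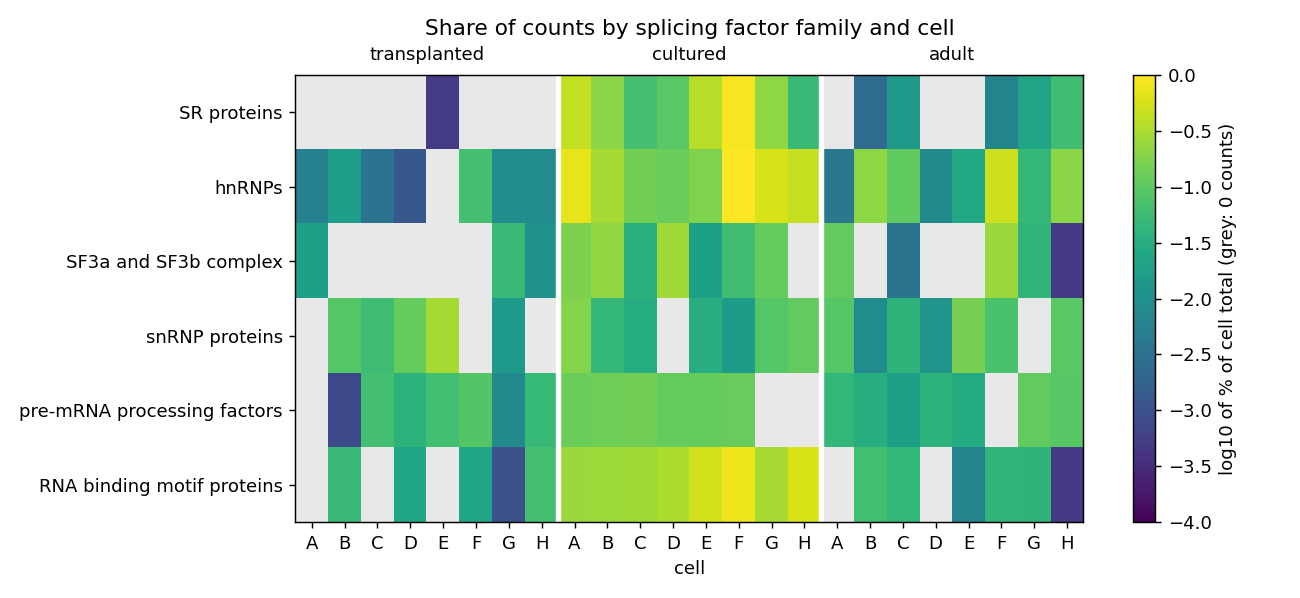
Share of each cell's counts by family, as log10 of the percent of the cell's total, with cells in columns and families in rows. Grey squares are cells with 0 counts of a family. The SR row is grey in 7 of the 8 transplanted cells and coloured in all 8 cultured cells. The snRNP row is grey in transplanted A, F and H, cultured D and adult G, and coloured in the other cells.

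Among the Sm ring proteins, Snrpd2 (chr7:19149722-19153542, mm10) was spread over the most transplanted cells. It had 38, 51, 61 and 10 counts in transplanted B, C, E and G, 4 and 9 in cultured A and G, and 9, 16, 41 and 59 in adult B, C, F and H, with 0 in the other cells. Its levels of 122.8, 63.1 and 98.3 CPM in transplanted, cultured and adult cells were within 2-fold of each other. Without cultured G, however, the transplanted sum was 5.63-fold and the adult sum 4.51-fold higher than the cultured one. Snrpd3, another protein of the ring, had 341 counts in transplanted E and none in the other 7 transplanted cells, beside 11 in cultured B and 18 in adult A. Its 4.91-fold higher sum in transplanted than in cultured cells (2.71 to 9.92) therefore belonged to that cell, and without it the ratio was at least 19.7-fold lower. Without cultured B, it was at least 12.7-fold higher. Snrpg was found in 7 of 8 cultured cells, with 1 to 26 counts, in transplanted B, E and G with 5, 3 and 4, and in adult A, C, D and H with 74, 3, 1 and 36. Its sum was 25.8-fold lower in transplanted than in cultured cells (13.5 to 53.3), 40.02-fold without transplanted B and 13.7-fold without cultured H. It was 2.65-fold lower in adult than in cultured cells (1.86 to 3.74), 6.23-fold without adult A and 1.41-fold without cultured H. Snrpf was found in 5 adult cells, with 11 to 57 counts, in cultured A and G with 7 and 3, and in no transplanted cell. It was at least 49.5-fold higher in adult than in transplanted cells, and 2.35-fold higher than in cultured cells (1.24 to 5.01), or 7.08-fold without cultured A. Without cultured B to E the log2 ratio of adult to cultured cells was -0.0478, within 2-fold. Snrpb had 2 counts in transplanted B, 5 and 49 in adult C and H, and none in cultured cells.

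The snRNP-specific proteins were seen in few cells. Snrpa1, the U2 A' protein, had 64 and 178 counts in transplanted B and D and 131 in adult E, with none in cultured cells. It was at least 12.8-fold higher in transplanted than in cultured cells, and at least 3.84-fold without transplanted D. Against cultured cells the adult sum was at least 7.08-fold higher and rested on adult E alone. Snrpb2, the U2 B'' protein, had 94 counts in transplanted E and 10 in cultured B, and Snrpc, of the U1 snRNP, had 1, 2 and 14 counts in adult B, D and F. Per kilobase of exon, the 4 highest members in transplanted cells were snRNP genes, Snrpd3, Snrpa1, Snrpd2 and Snrpe at 76.0, 58.6, 46.9 and 43.1 CPM per kb. In cultured cells, by the same scale, Rbm39 (174) and Snrpg (151) came first, and in adult cells Snrpf (132) and Hnrnpc (85.3).

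The SF3a and SF3b subunits took 0.140% of counts in cultured, 0.00875% in transplanted and 0.0466% in adult cells, 15.96-fold lower in transplanted than in cultured cells (12.8 to 20.01, and 26.7-fold without transplanted G). The adult sum was 3.00-fold lower than the cultured one (2.59 to 3.45), and 5.05-fold without adult F. Sf3b3, a scaffold subunit of SF3b, had 6, 39, 2, 51 and 8 counts in cultured A, B, C, D and F, 70 in adult G and none in transplanted cells. The transplanted level was at least 223-fold lower than the cultured 514 CPM, and at least 134-fold without cultured D. Sf3b1, the subunit that contacts the branch site and is recurrently mutated in blood cancers, had 80 of its 89 cultured counts in cell B. Its 33.1-fold lower sum in transplanted cells (19.5 to 59.3) was 4.74-fold without cultured B and at least 173-fold without transplanted G, which held all 17 transplanted counts. Sf3b5 went the other way, with 26 and 37 counts in transplanted A and H, 246 and 47 in adult A and F, and none in cultured cells. It was at least 3.32-fold higher in transplanted than in cultured cells, at least 1.86-fold without transplanted H and 2.19-fold without transplanted A. In adult cells it was at least 15.8-fold higher than in cultured cells, and at least 3.08-fold without adult A. Sf3b6, which sits at the branch point adenosine, had 224 counts in adult F and no other adult cell, and 2 and 26 in cultured A and G. Sf3b2 had 34 counts in transplanted G, 2, 3 and 3 in cultured A, B and D, and 1 in adult C.

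The pre-mRNA processing factors took 0.0415% of counts in transplanted, 0.0970% in cultured and 0.0504% in adult cells, 2.34-fold lower in transplanted than in cultured cells (1.98 to 2.75). Prpf39, a U1-associated factor, held 469 of the 541 transplanted counts, 68 of the 200 cultured counts and 442 of the 641 adult counts of the family. It had 56, 61, 120, 68 and 164 counts in transplanted C, D, E, F and H, 22, 36 and 10 in cultured A, B and C, and 26 to 179 in 6 adult cells. Its levels were 360, 330 and 348 CPM. Exons of Prpf39 (chr12:65036333-65063386) overlap 599 bp of exons of Fkbp3 on the other strand, Fkbp3 is abundant (1554 CPM in transplanted cells), and the strand setting of the counting is not stated, so reads of the pair cannot be told apart. Without Prpf39 the family took 0.00553%, 0.0640% and 0.0157% of counts, and all members took 0.126%, 1.31% and 0.276%. Prpf8, the large protein at the heart of the spliceosome, had 32 counts in cultured B and 1 in cultured E, and 0 elsewhere. Prpf38a had 184 counts in adult G and none in the other 23 cells. Prpf31, of the U4/U6 snRNP and known for retinitis pigmentosa, had 63 counts in transplanted F, 2 and 9 in cultured C and F, and none in adult cells.

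Of the 6 families, SR proteins had the lowest transplanted level relative to the cultured one. They took 0.258% of counts in cultured cells (0.236 to 0.280), 0.0151% in adult cells (0.0130 to 0.0174) and 7.68e-05% in transplanted cells, where 1 count of Srsf1 in cell E was the whole family. In cultured cells the share was 0.0502% at the lowest, 0.203% at the median and 0.920% at the highest, and all 10 genes and all 8 cells had counts. The transplanted sum was 3355-fold lower than the cultured one, with a counting interval of 600 to 132780, and at least 950-fold lower without transplanted E. The adult sum was 17.1-fold lower (14.4 to 20.2), or 40.8-fold without adult H. All 8 measured SR genes were lower in transplanted than in cultured cells, and all 8 in adult than in cultured cells, beside 64% and 62.1% of all measured genes, while Srsf4 and Srsf9, with 2 and 5 counts in all, were not measured.

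Upstream sequence is shown for Srsf2, Srsf5 and Rbm5 as examples. The annotated start of each of these 3 lies within 6 bases of the end of its reference window, as do those of some other members. The 120 bases before the start are given 5′ to 3′ on the gene's strand, from RefSeq, build GRCm38.p6 (mm10). Capitals mark the CCAAT box, spelled as named. They also mark TATAAA, the core of a TATA box. The ETS core is marked as CCGGAAG. Each was read on both strands. Srsf2 lies on the minus strand (chr11:116853095-116853214), Srsf5 on the plus strand (chr12:80945379-80945498) and Rbm5 on the minus strand (chr9:107771003-107771122).
Srsf2: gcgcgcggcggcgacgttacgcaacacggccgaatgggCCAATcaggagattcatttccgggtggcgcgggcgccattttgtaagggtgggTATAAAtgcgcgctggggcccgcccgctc
Srsf5: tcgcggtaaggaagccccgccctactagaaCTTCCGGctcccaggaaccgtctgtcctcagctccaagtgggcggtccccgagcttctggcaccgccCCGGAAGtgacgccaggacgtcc
Rbm5: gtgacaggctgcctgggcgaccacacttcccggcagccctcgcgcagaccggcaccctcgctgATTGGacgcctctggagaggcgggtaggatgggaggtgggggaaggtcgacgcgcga
The 3 sequences carry different sets of these motifs. Srsf2 has a CCAAT and a TATA box, Srsf5 has the ETS core once on each strand, and Rbm5 has a CCAAT box read on the other strand. Of other members with a start within 6 bases, Srsf1, Srsf7 and Rbm10 have none of these motifs in their 120 bases. Rbm45 has the ETS core. Over the 250 bases before the start, CCGGAAG was found in 25.3% of the 95 promoters matched to 75 members and in 6.91% of all 32851 promoters. CCAAT was found in 47.4% against 33.8%, TATAAA in 8.42% against 12.4% and the TEAD letters CATTCC in 5.26% against 12.6%. The median number of CG pairs was 19 in member promoters and 6 in all. These are matches of letters, and some of the 95 belong to the same gene.

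Srsf11 had 13, 1, 5, 103 and 17 counts in cultured B, C, D, F and G, and none in transplanted or adult cells. The transplanted level was at least 293-fold below the cultured 674 CPM, and at least 83.3-fold without cultured F. Srsf7 had 29, 27 and 25 counts in cultured A, B and E and none in the other groups, so the transplanted level was at least 171-fold lower. Srsf10, known as a regulator of calcium-handling transcripts in heart, had 6, 16, 25, 26 and 19 counts in cultured A, B, E, F and G and 7 in adult F. It was at least 194-fold lower in transplanted cells and 81.1-fold lower in adult cells (37.8 to 207, and at least 173-fold without adult F). Srsf5 was found in 6 cultured cells, with 1 to 24 counts, and in adult C with 4. Srsf2 was found in 4 cultured cells, with 1 to 10 counts, and in adult B with 3. Srsf1, whose loss in mouse heart is known to disturb excitation-contraction coupling, had 19, 5 and 3 counts in cultured A, E and G. Srsf3 was the exception in the adult cells, with 16 and 125 counts in C and H. It was 2.27-fold lower in adult than in cultured cells (1.62 to 3.15), 16.7-fold lower without adult H and 2.30-fold higher without cultured B, which held 45 of 52 cultured counts. Without cultured B to E the log2 ratio was 0.91.

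The hnRNPs took 0.409% of counts in cultured, 0.117% in adult and 0.0130% in transplanted cells. The transplanted sum was 31.6-fold lower than the cultured one (26.7 to 37.5), or 64.6-fold without transplanted F, and the adult sum was 3.49-fold lower (3.20 to 3.80). Of 15 measured in transplanted against cultured cells, 13 were lower and none higher, beside 64% lower of all measured genes. Of 16 in adult against cultured cells, 10 were lower and 2 higher, a share near the 62.1% lower of all measured genes. Hnrnpu, a nuclear scaffold protein needed for normal heart splicing in mice, had 24, 15, 4, 1, 61, 11 and 16 counts in cultured A, B, C, E, F, G and H, 10 and 9 in adult F and G, and none in transplanted cells. It was at least 278-fold lower in transplanted cells, and at least 164-fold without cultured F. Its exons overlap 804 bp of Cox20 on the other strand. Hnrnpk, named after its values were seen, was the only member with counts in all 8 cultured cells, at 3 to 28 counts each. It had 2 and 1 counts in transplanted C and G, and 21, 4 and 15 in adult B, C and H. Hnrnph1 had 2 to 73 counts in 5 cultured cells, 10 in transplanted F, and 44 and 401 in adult C and H. It was 87.2-fold lower in transplanted cells (46.0 to 186), and at least 257-fold without transplanted F, while the adult sum was 1.91-fold lower (1.57 to 2.32), or 16.1-fold without adult H. Hnrnpc had 14, 17, 7 and 27 counts in cultured A, B, C and F, 1 and 79 in transplanted B and F, and 38, 427 and 4 in adult C, F and H. Its adult sum was 1.17-fold the cultured one (0.901 to 1.54), but 8.73-fold lower without adult F and 1.82-fold higher without cultured F. Hnrnpll, with 225 counts in adult B, and Hnrnpa3, with 35 and 68 in adult E and G, were the 2 that were higher in adult than in cultured cells. Hnrnpll was 7.30-fold higher (3.08 to 22.7), but at least 9.32-fold lower without adult B, and 10.99-fold and 16.8-fold higher without cultured A and C. Hnrnpa3, at least 5.57-fold higher, was at least 2.19-fold higher without adult G, and 27.1% of its 50-base windows occur in other genes. Hnrnph3 had 2 and 20 counts in transplanted A and B and 1 each in cultured A and F. Hnrnpa1, also named after its values were seen, had 2 counts in all, and 28.2% of its windows are shared with 19 other genes.

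RNA binding motif proteins took 0.381% of counts in cultured, 0.0279% in transplanted and 0.0207% in adult cells. All 14 measured in transplanted against cultured cells were lower (64% of all measured genes), and the sum was 13.7-fold lower (12.1 to 15.5), or 27.1-fold without transplanted H. In adult against cultured cells 14 of 16 were lower and 1 higher (62.1% and 23% of all measured genes), and the sum was 18.4-fold lower (16.01 to 21.3). Rbm39, a U2AF-like coactivator and the target of aryl sulfonamide degraders, had 9, 77, 7, 30, 19 and 107 counts in cultured A, B, E, F, G and H, 227 in transplanted H and 49 in adult B. It was 6.93-fold lower in transplanted than in cultured cells (5.77 to 8.33), at least 386-fold without transplanted H and 4.47-fold without cultured H. Rbm5, a regulator of exon choice in apoptosis genes, had 30, 15, 53 and 46 counts in cultured B, C, D and E and 0 in the other 20 cells. Those 4 are the cells with the high Rpph1 share, and the part of that feature in the Rbm5 counts was not tested. Rbm33 had 3, 11, 1, 10 and 36 counts in cultured A, B, C, E and F and none elsewhere, at least 128-fold lower in transplanted cells and at least 57.8-fold without cultured F. Rbm8a, a core protein of the exon junction complex, had 25, 14 and 24 counts in cultured F, G and H, the cells low in cardiomyocyte markers, 34 in transplanted D, and 9, 3 and 29 in adult B, C and F. It was 11.7-fold lower in transplanted than in cultured cells (7.60 to 18.3), at least 117-fold without transplanted D and 7.76-fold without cultured F. Without cultured F to H the cultured cells had 0 counts, and the log2 ratio to their floor of 3 counts was 0.30 in transplanted and 0.60 in adult cells, so the direction turned. Rbm4b, with 13, 8 and 20 counts in cultured D, F and G, was seen in no transplanted or adult cell. Rbm28 had 2, 4 and 13 counts in cultured A, C and E and 11 in transplanted F.

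Of the Rbm proteins known as muscle regulators, Rbm24 had the most counts. Rbm24 (chr13:46418434-46431095) had 63, 1, 24 and 1 counts in transplanted B, D, F and G, 8, 10, 3 and 11 in cultured A, B, C and F, and 69 in adult G. Its levels were 68.3, 155 and 54.3 CPM. It was 2.27-fold lower in transplanted than in cultured cells (1.47 to 3.44), or 7.04-fold without transplanted B, and 2.86-fold lower in adult than in cultured cells (1.82 to 4.41), or at least 56.9-fold without adult G. Rbm20 (chr19:53677306-53867080) had 1 count in transplanted B, 2, 1 and 2 in cultured A, C and E, and none in adult cells. Rbm20 fell below the minimum of 10 counts over both groups in each comparison, so it was not called higher or lower. Its 0 counts allow up to 2.36 CPM in adult cells by counting error alone. Rbm38, a p53 target that binds AU-rich RNA and takes part in muscle differentiation, had 3 and 9 counts in cultured C and G and 5 in adult B.

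**Figure D4:**
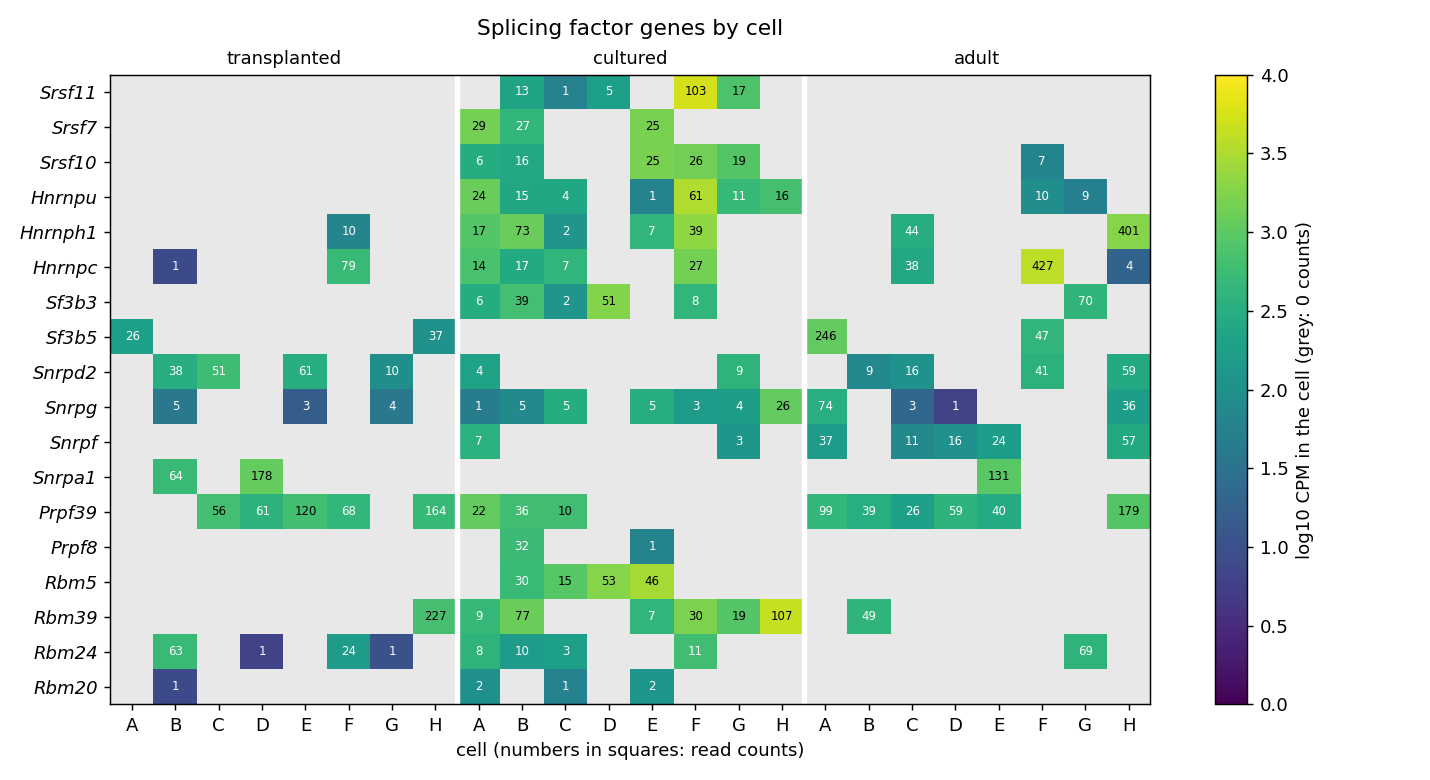
Level of splicing factor genes in each cell, as log10 CPM, with read counts printed in the squares and grey where a gene had 0 counts. Rows are genes taken from those described in the text. Srsf11, Srsf7 and Rbm5 are coloured in cultured cells alone, Prpf39 is coloured in 5, 3 and 6 cells of the transplanted, cultured and adult groups, and Rbm20 reaches at most 2 counts.

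A list of 20 muscle splicing regulators shares 9 genes with the members, so its counts are partly of the same genes. All 15 measured were lower in transplanted than in cultured cells (64% of all measured genes), and 15 of 16 in adult than in cultured cells (62.1%). A gene counted through cultured cells alone had to come out as lower, as Mbnl1, Mbnl2, Celf1 and Ptbp1 did in transplanted against cultured cells. Qk, the quaking protein, had 69, 372, 41, 124, 10 and 14 counts in cultured A to F, 5 and 258 in transplanted A and B, and 2 to 92 in 6 adult cells. It was 15.1-fold lower in transplanted than in cultured cells (13.1 to 17.5), 720-fold without transplanted B and 8.79-fold without cultured B. Mbnl1 and Mbnl2, the muscleblind proteins sequestered in myotonic dystrophy, had 84 and 116 counts in cultured cells and none in transplanted cells. The transplanted levels were at least 177-fold and at least 244-fold lower, and for Mbnl1 at least 32.9-fold without cultured B. Celf1 and Celf2, which act against muscleblind proteins in heart development, had counts in 6 and 5 cultured cells. The transplanted level of Celf1 was at least 92.7-fold lower, and at least 54.8-fold without cultured E. Celf2, with 1 count in transplanted A, was 392-fold lower (67.8 to 15721), 146-fold without cultured F and at least 116-fold without transplanted A. Ptbp1 and Ptbp2, polypyrimidine tract repressors, were at least 114-fold and 92.7-fold lower (29.7 to 467 for Ptbp2) in transplanted cells, at least 17.9-fold without cultured B for Ptbp1, and 44.3-fold without cultured A or at least 78.8-fold without transplanted E for Ptbp2. Rbpms, a smooth and cardiac muscle regulator, was 41.1-fold lower (17.3 to 119), 108-fold without transplanted D and 9.47-fold without cultured G. Rbfox1 and Rbfox2 had at most 4 counts in any cell, and Rbm4 had 1 count in all. Srpk3, a muscle SR kinase, had 14 counts in adult C, 1 in transplanted B and none in cultured cells.

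Among 101 further splicing factors that are not members, 52 of 69 measured were lower and 12 higher in transplanted than in cultured cells, and 55 of 69 lower and 8 higher in adult than in cultured cells. The shares over all measured genes were 64% lower and 22.5% higher, and 62.1% lower and 23% higher. Here too, a gene counted through cultured cells alone had to come out as lower. Adult against transplanted cells gave 18 higher and 21 lower of 44, while the members gave 24 and 8 of 39 and all genes 44.3% higher and 34.8% lower. Ddx5, an RNA helicase, was 46.1-fold lower in transplanted than in cultured cells (32.0 to 68.6, and 91.8-fold without transplanted B or 78.1-fold without G). Srrm2, a speckle scaffold, was 27.1-fold lower (19.2 to 39.1), 140-fold without transplanted D and 11.4-fold without cultured D. Matr3 was 97.3-fold lower (57.8 to 177), 49.98-fold without cultured F and at least 449-fold without transplanted G. Pcbp2 was 370-fold lower (100.1 to 3088), 204-fold without cultured H. Without transplanted B or C it was 669-fold and 689-fold lower. The SR kinases and their phosphatase were mixed, with 4 of 7 measured lower and 2 higher in transplanted than in cultured cells. Named after their values were seen, Srpk2 had 197 counts in 7 cultured cells and none in other groups, whereas the phosphatase subunit Ppp1ca had 222, 156, 144 and 25 counts in transplanted A, C, D and F and none in cultured cells.

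Library makeup by exon length moved with the comparisons. Titin (Ttn) was left out of the weighting by counts. The weighted median exon length of a cultured cell was then 3730 to 6983 bp, that of a transplanted cell 1950 to 2304 bp and that of an adult cell 2044 to 2353 bp. Members had a median exon length of 5298 bp, against 4568 bp for all genes, and the snRNP genes 2159 bp. In transplanted against cultured cells, 36.6% of all measured genes of the shortest class (up to 2796.5 bp) were lower and 43.1% higher, and in the longest class 82.6% were lower and 8.39% higher. Of the members, 6 of 9 in the shortest class were lower and 0 higher, then 11 of 16, 17 of 19 and 15 of 16 were lower in the next classes up. The part of exon length in the family differences was not tested.

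**Figure D5:**
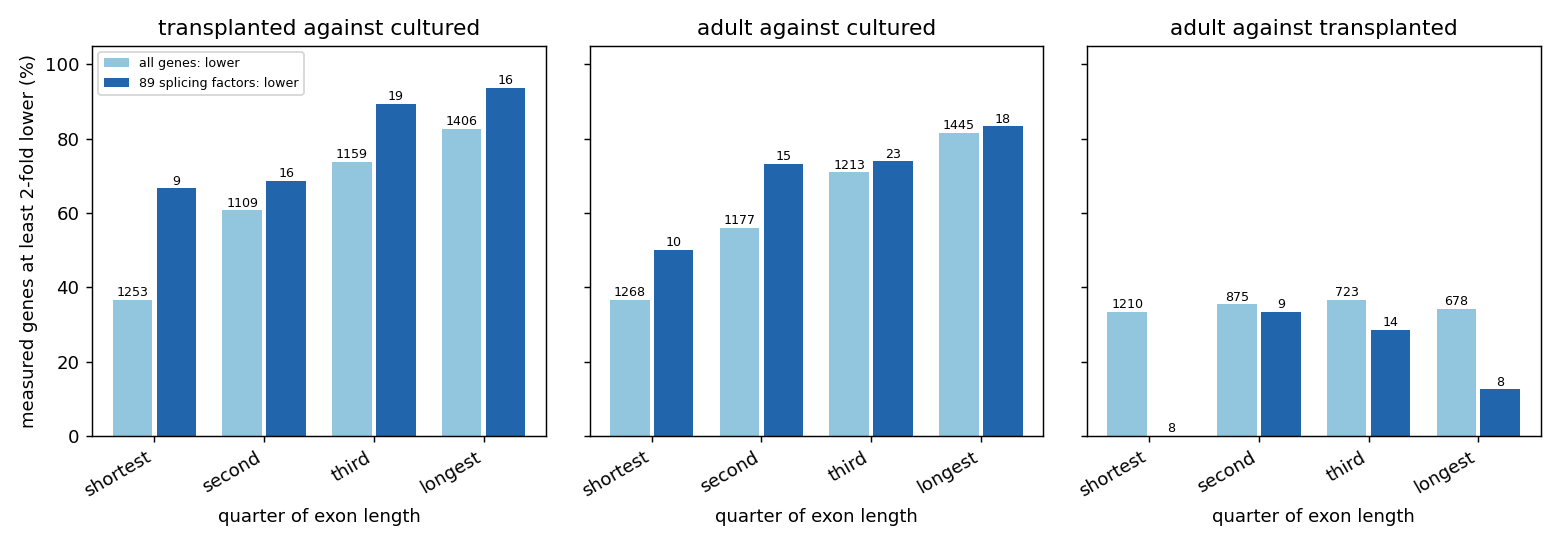
Percent of measured genes at least 2-fold lower, by class of exon length, for all genes (light bars) and the 89 splicing factors (dark bars), with the number measured above each bar. In the left and middle panels the bars rise with exon length in both sets of genes, from 36.6% to 82.6% of all genes at left.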

How the data were processed

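For each of 24 cells, the authors deposited whole-number read counts by gene, from full-length cDNA made with a template-switching enzyme and cut with Tn5, per the labels' protocols. Per the submitters' processing notes, rat and mouse cells alike carry the names TopHat2 2.1.0, HTSeq, DESeq2 and mouse build mm10. How rat reads map to the mouse build by gene was not tested. Annotation, strand setting and the choice of the 9595 listed genes (692 with no count) were not given in the sources used here, so totals are of listed genes. The splicing factor set and the gene lists were chosen with earlier results of these data known.

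Counts were summed over the 8 cells of a group and scaled to 1000000 (CPM). Levels carry exact Poisson, ratios exact conditional binomial and shares exact Clopper-Pearson 95% intervals. Settings were a minimum of 10 counts over both groups, a fold of 2, a pseudocount of 1 CPM and a floor of 3 counts per group at 0. Detection used the hypergeometric expectation at 16099 counts. Within groups, chi-square over degrees of freedom for a pair of cells was 13.6 or more, so no cells were merged. Positions, exon lengths, overlaps and shared 50-base windows came from GENCODE M21, matched by 9343 symbols and 180 synonyms. Steps were tested on simulated data. Alternatives used edgeR 4.0.16 and DESeq2 1.42.0 for scaling factors alone. Python 3.11.15 and R 4.3.3 were used. Named genes were the 3 highest members of each family by mean CPM, the 6 highest and 6 lowest ratios per comparison, the muscle regulators and the 5 highest further factors. Others are said to have been chosen after their values were seen, or are the members of a count of 5 or fewer or of those lacking counts.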

Additional observations from a re-analysis of the deposited data

Results flagged for a closer look

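A cell was marked when its gap to the nearest other cell, divided by the range of its group, exceeded Dixon's critical value for 8 cells. For normally distributed values, chance marks about 1 in 20 such sets. The shares and levels here are skewed with many zeros, so the number marked cannot be set against that rate. Of 44 sets tested 16 were marked, and a further 64 were not tested because counts lay in too few cells. No explanation was tested for any of them. In transplanted cells, E stood high in the share of counts on all splicing factors (0.356%) and on snRNP proteins (0.294%), F in hnRNPs (0.0634%), G in SF3a and SF3b (0.0509%) and B in Rbm24 (507 CPM). In cultured cells, F stood high in SR proteins (0.920%), Hnrnpu (3302 CPM), Rbm33 (1948 CPM) and Srsf11 (5575 CPM), and H in Rbm39 (4480 CPM) and Snrpg (1088 CPM). Cultured D stood high in Sf3b3 (1829 CPM) and cultured A in Srsf5 (1212 CPM). In adult cells, H stood high in SR proteins (0.0592%), and F in hnRNPs (0.499%) and in SF3a and SF3b (0.250%).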

How the results depend on the processing

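No paired analysis was possible because the cells' letters only name cells and each group was 1 sample with no test. For transplanted against cultured cells, the 3 members higher became 7 with TMM factors, 5 with median-of-ratios factors, 5 with equal cell weights, 6 without cultured F to H and 3 to 5 with 1 cell left out, and the 49 lower became 27 at a minimum of 30 counts. The median of -6.16 became -5.43 with TMM factors, -5.35 with no minimum, -4.17 with a pseudocount of 5 CPM and -6.93 without cultured B to E. For adult against cultured cells, the 48 lower became 26 at a minimum of 30 counts and 31 without cultured B to E. The median of -4.27 became -3.37 with TMM factors, -3.42 with no minimum or with a pseudocount of 5 CPM, -2.37 at a minimum of 30 counts, -2.35 without cultured B to E, -3.63 without F to H, and -5.63 to -3.32 with 1 cell left out. For adult against transplanted cells, the 8 lower became 5 at a minimum of 30 counts. The median of 3.02 became 2.19 with no minimum, 1.996 with a pseudocount of 5 CPM and 2.11 to 3.57 with 1 cell left out.

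The share of counts on members moved beyond its counting interval to 0.153%, 1.42% and 0.328% in transplanted, cultured and adult cells with equal cell weights, to 0.126% (transplanted) and 0.276% (adult) without Prpf39, and to 1.49% in cultured cells without Rn45s and Rpph1 in the total. It was 1.77% without cultured B to E, 1.16% without F to H and 0.217% without adult F and H. With 1 cell left out it was 0.128% to 0.179%, 1.18% to 1.42% and 0.259% to 0.346%. Leaving out Prpf39 and the shares without groups of cells were chosen after seeing the data. The median of members detected in a cultured cell, 28.1, was 13.5 at 5 counts or more. The cause of these shifts was not tested.

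Of 81 ratios of named members at least 2-fold apart, 11 turned direction under some alternative, 4 of them beyond leaving out 1 cell. Ratios that ended at a log2 of 0, with no direction left, were not counted as turned. With 1 cell left out, Hnrnph3, Hnrnpll, Prpf31, Prpf38a, Rbm28, Sf3b2, Sf3b3, Sf3b6 and Snrpb2 did so in adult against transplanted cells. Prpf38a, Snrpa1, Snrpb, Snrpb2 and Snrpd3 did so in adult against cultured cells. On the log2 scale with zeros at the floor, Rbm8a was 0.30 (transplanted) and 0.60 (adult) against cultured cells without F to H. Without cultured B to E, Snrpf was -0.0478 and Srsf3 0.91 in adult against cultured cells. With 1 cell left out, Snrpd3 ran from -4.30 to 3.66 in transplanted against cultured cells. In adult against cultured cells, Hnrnpll ran from -3.22 to 4.07 and Srsf3 from -4.06 to 1.20. In adult against transplanted cells, Hnrnpc ran from -0.77 to 8.73, Rbm39 from -6.07 to 3.62, Sf3b1 from -3.88 to 0.66, Sf3b5 from -0.11 to 3.09 and Snrpd3 from -6.51 to 2.39. Depth limits the cultured group most, where 0 counts allow 14.6 CPM by counting error alone.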
